A study of Mus musculus with 9 samples.

Results

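Retinal ganglion cells (RGCs) from eyes with Moderate IOP were compared with RGCs from eyes with Mild IOP, the 2 levels of intraocular pressure (IOP) elevation in a mouse microbead model. The comparison took 3 Moderate IOP and 3 Mild IOP libraries out of 9 in the series. It was made over all genes without a locus on chromosome X or Y. Of 22905 such genes listed (23997 symbols in all), 12600 passed a filter on low values and were tested.

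All mice were C57BL/6J and were 8 weeks old in the labels. In both IOP groups, microbeads had been injected into the anterior chamber of the eye, and in the Control group, which is given here as a reference level, saline had been injected. IOP was followed for 2 weeks, and eyes were then sorted into Mild IOP and Moderate IOP by how far their pressure had risen, so the groups differ in a measured response and not in an assigned dose. RGCs were isolated by immunopanning in 4 steps, in which plates coated with BSL-1, CD11b/c and VC1.1 removed endothelial cells, fibroblasts, microglia, macrophages and amacrine cells, and a Thy1.2 plate retained RGCs. The 3 libraries of a group came from a shared RNA pool, so that the replicates are technical and every p-value covers the spread between libraries of a pool and not between mice. The Moderate IOP pool drew on fewer retinas than the Mild IOP pool.

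RGCs are the output neurons of the retina. Their long axons form the optic nerve, are unmyelinated within the eye and are rich in mitochondria, and elevated IOP injures them at the optic nerve head in glaucoma. Nuclear genes encode most subunits of the respiratory chain, the ATP synthase and both kinds of ribosome, and their mRNAs are mostly short and abundant. Synaptic receptors and ion channels, by which RGCs are excited by bipolar cells and inhibited by GABA and glycine from amacrine cells, are mostly encoded by long mRNAs.

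Values are FPKM (fragments per kilobase of transcript, with library size normalised), scaled between libraries, and are therefore levels per transcript length. Differences are Moderate IOP minus Mild IOP on the log2(FPKM + 1) scale, which understates changes of low genes, with the standard error (SE) and the p-value from limma, adjusted by the Benjamini-Hochberg method over all genes tested. A gene was called a differentially expressed gene (DEG) at an FDR below 0.1. Positions are those of RefSeq on GRCm38.p6.

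Derived sequencing depth was 5210000 to 6670000 fragments in the Mild IOP libraries and 4860000 to 8490000 in the Moderate IOP libraries. In 2 libraries a microRNA gene held a large part of all FPKM. Mir1249 made up 20.5% in Mild IOP replicate 2, and Mir8104 made up 9.14% in Moderate IOP replicate 3. The pools also differed in sex-linked transcripts, since Xist was at 1.28 to 2.01 FPKM in Mild IOP and 9.56 to 11.2 FPKM in Moderate IOP and Ddx3y was at 8.34 to 9.43 FPKM and 0.191 to 0.603 FPKM. The part of this difference in the results below was not tested.

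The labelled cell type was checked against marker lists. RGC markers were present in all 6 libraries, with the sum of the RGC list at 1897 to 2307 FPKM in Mild IOP and 3543 to 3714 FPKM in Moderate IOP. The transcription factor Pou4f2 was at 8.63, 8.35 and 8.01 FPKM in the Mild IOP libraries and 10.7, 8.86 and 7.16 FPKM in the Moderate IOP libraries, and the 2 groups overlapped (adjusted p = 0.86). Amacrine transcripts remained in both pools, with a summed level of 2679 to 2770 FPKM in Mild IOP and 2208 to 2436 FPKM in Moderate IOP. Rod and cone transcripts did too, at 723.3 to 817.0 FPKM in sum in Mild IOP and 799.3 to 841.8 FPKM in Moderate IOP, and 0 of 29 rod and cone markers were DEGs by limma, with 3 at an unadjusted p below 0.05. The lens crystallin Crygs was listed at 0 in all 6 libraries. The whole lens list summed to 14.01 to 16.29 FPKM in Mild IOP, 23.11 to 34.76 FPKM in Moderate IOP and 399.3 to 519.5 FPKM in Control. In pooled RNA, fewer cells of a type and less RNA per cell cannot be told apart.

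Over all genes tested, 10.2% of 13043 were DEGs. Off chromosomes X and Y, 1264 of 12600 genes were DEGs, of which 880 were higher in Moderate IOP (6.98%) and 384 were lower (3.05%), and 2731 genes had an unadjusted p below 0.05. With a fold-change of at least 1.5 in addition, 725 genes were upregulated and 287 were downregulated. At least 2-fold differences were found in 255 higher and 67 lower genes, and at least 4-fold differences in 23 higher and 2 lower genes. Of the DEGs, 69.6% were higher. That share depended on the scaling, and was 52.6% without scaling, 50.4% with 75th percentile scaling and 46.0% with quantile normalization.

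The DEGs differed from the other genes in length and level. Median transcript length was 1029 nt among genes higher in Moderate IOP and 3492 nt among lower genes, beside 2616 nt among all genes tested, and the median level was 86.3, 13.8 and 8.54 FPKM. Among genes with transcripts below 500 nt the median log2 difference was 0.66 and 30.9% of 152 genes were higher. Among transcripts of 4000 to 6000 nt the median was −0.19, with 1.3% of 2000 genes higher and 5.45% lower. Mild IOP replicate 2 stood furthest from the mean of the 9 libraries, with a median deviation of −0.70 on the log2 scale in genes below 500 nt, while replicates 1 and 3 of Mild IOP were at −0.35 and −0.25 and the Moderate IOP libraries at 0.21 to 0.29. Control libraries lay between, at −0.14 to 0.07. After a smooth trend on transcript length was removed from each library, 257 genes were higher (2.06% of 12494) and 184 were lower (1.47%), among them 241 of the 880 and 130 of the 384. The cause of this trend was not tested.

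**Figure D1:**
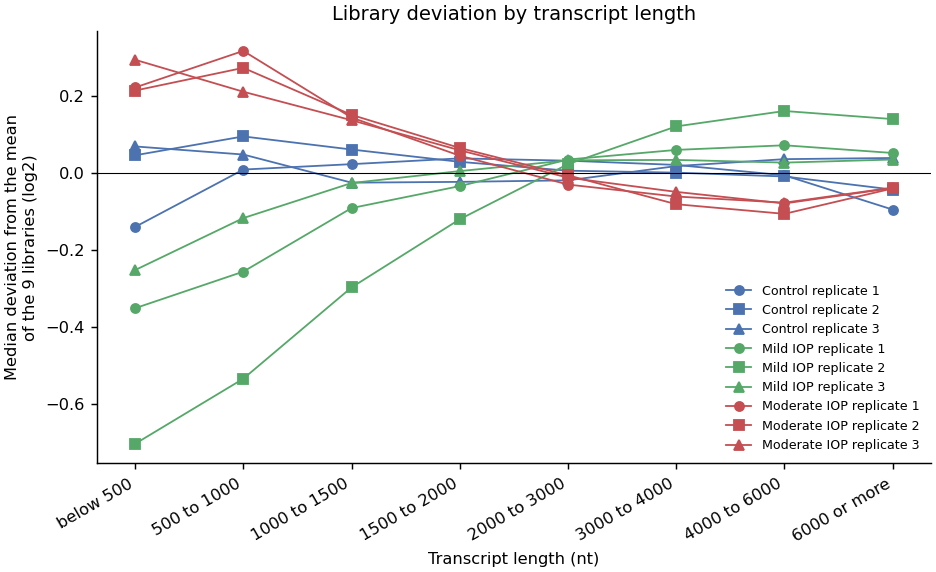
Median deviation of each library from the mean of the 9 libraries (log2 scale, vertical axis) in genes grouped by transcript length in nt (horizontal axis), with Control in blue, Mild IOP in green and Moderate IOP in red and 1 marker shape per replicate number. Below 1000 nt the 3 Mild IOP libraries lie under the others, with replicate 2 lowest at −0.70, and the 3 Moderate IOP libraries lie above them.

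**Figure D2:**
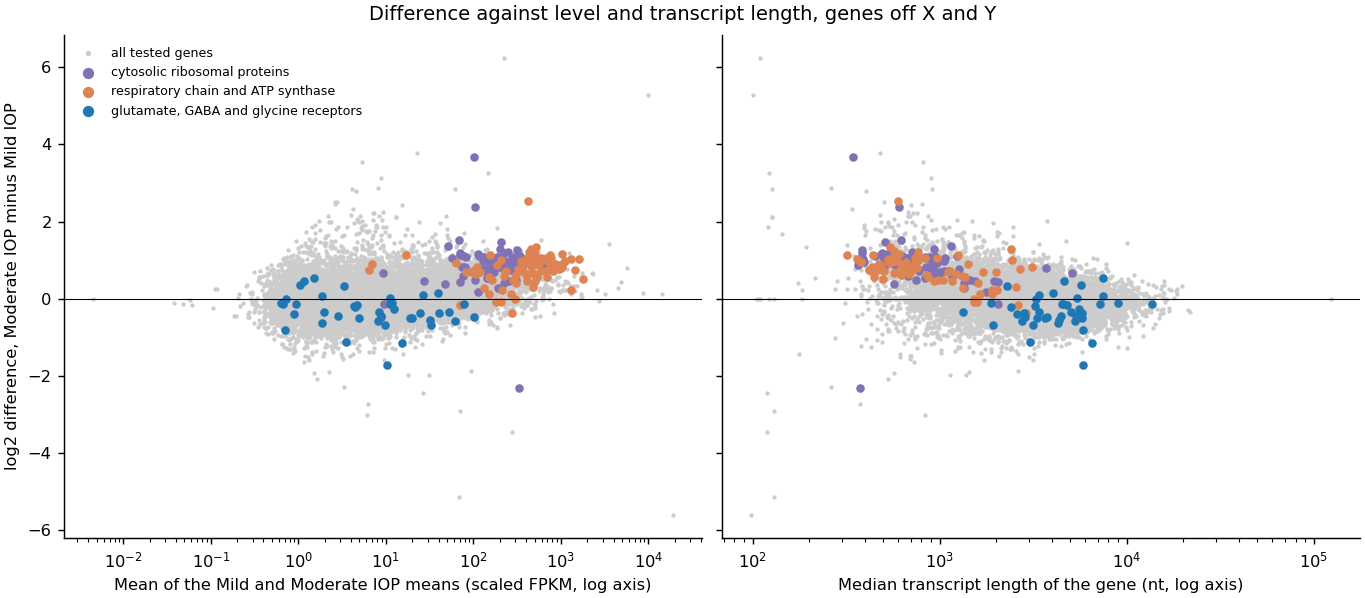
Log2 difference between Moderate IOP and Mild IOP (vertical axis) of each gene tested off X and Y against its mean level (left, FPKM, log axis) and its transcript length (right, nt, log axis). Ribosomal protein genes (purple) and respiratory chain and ATP synthase genes (orange) lie mostly above 0 at high level and short length, and receptor genes (blue) lie mostly below 0 at greater length.

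The number of DEGs also depended on single libraries. Without Mild IOP replicate 2, 410 genes were higher and 86 lower, and without Mild IOP replicate 1 the numbers were 577 and 141. Without Moderate IOP replicate 2 they were 539 and 208, and without Moderate IOP replicate 1 they were 604 and 244. In each of the 9 fits that left out 1 library, 350 of the 880 higher genes (39.8%) and 66 of the 384 lower genes (17.2%) were DEGs in the same direction. The Moderate IOP libraries lay apart from the Mild IOP libraries in 98.5% of higher and 99.0% of lower DEGs and in 27.3% of all genes tested, so a lack of overlap is not particular to the genes named. Of the 147 DEGs named by rule or as a check, 101 kept their call in each of the 9 fits that left out 1 library. The DEGs were spread over the autosomes, of which 4.36% to 8.76% of the genes were higher and 1.81% to 4.33% were lower.

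Most genes of oxidative phosphorylation were higher in Moderate IOP. This pathway passes electrons through respiratory complexes to oxygen and uses the proton gradient for ATP synthesis. Of 80 nuclear genes of the respiratory chain and ATP synthase tested, 61 were higher and 1 was lower, with a median log2 difference of 0.79 beside −0.01 over all genes tested. Complex I, which takes electrons from NADH, had 29 of 35 subunit genes higher and 0 lower. Its summed level was 10220, 8234 and 12300 FPKM in the Mild IOP libraries and 18480, 18710 and 17870 FPKM in the Moderate IOP libraries, without overlap, and 15120 FPKM on average in Control.

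Within complex I, Ndufa12 (chr10:94199035-94221440) was at 269.7, 240.4 and 281 FPKM in the Mild IOP libraries and 589, 569.7 and 502 FPKM in the Moderate IOP libraries (log2 difference 1.07, SE 0.12, adjusted p = 0.004). Ndufb3 (chr1:58586397-58595964) was at 268, 198 and 310.2 FPKM in the Mild IOP libraries and 561, 605 and 624 FPKM in the Moderate IOP libraries (log2 difference 1.23, SE 0.15, adjusted p = 0.004). In both genes every Moderate IOP value lay above every Mild IOP value, with Control at 348, 387 and 449 FPKM for Ndufa12. Ndufs5 (chr4:123712710-123718186) had the largest rise of the pathway and the widest spread, at 43.4, 115 and 314 FPKM in the Mild IOP libraries and 795, 739 and 530.0 FPKM in the Moderate IOP libraries (log2 difference 2.53, SE 0.52, adjusted p = 0.02).

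Complexes II to IV carry electrons from succinate and ubiquinol to oxygen, and 19 of 27 genes were higher and 1 was lower. Cox7c (chr13:86044798-86046795), a small subunit of cytochrome c oxidase, was at 328, 196 and 365 FPKM in the Mild IOP libraries and 691, 808 and 694 FPKM in the Moderate IOP libraries (log2 difference 1.34, SE 0.21, adjusted p = 0.0077). Cox8a and Cox6a1, subunits of the same complex, had differences of 1.03 and 0.99 on the log2 scale (adjusted p = 0.0078 and adjusted p = 0.0077). Cycs, which encodes cytochrome c, rose from 74.4, 74.5 and 86.8 to 130.2, 140.0 and 151 FPKM, and its long transcript set it apart from most of the pathway (log2 difference 0.83, SE 0.14, adjusted p = 0.0092). The exception in direction was Sdha, the flavoprotein subunit of succinate dehydrogenase, singled out after its values were seen, at 239 ± 11.1 FPKM in Moderate IOP against 308 ± 9.19 FPKM in Mild IOP (SD, n = 3 libraries, log2 difference −0.37, adjusted p = 0.077).

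ATP synthase, which makes ATP from the proton gradient, had 13 of 18 genes higher and 0 lower. Atp5j (chr16:84827871-84835857) was at 429.7, 291 and 449.8 FPKM in the Mild IOP libraries and 749, 809.8 and 826 FPKM in the Moderate IOP libraries (log2 difference 1.05, SE 0.16, adjusted p = 0.0072), and Atp5h and Atp5j2 differed by 0.90 and 0.96 (adjusted p = 0.008 and adjusted p = 0.0094). Enzymes that feed the chain held few DEGs. Of 16 citric acid cycle genes, 0 were DEGs by limma and 1 had an unadjusted p below 0.05, with a median log2 difference of −0.02. Among 18 glycolytic genes, 1 was higher, Gapdh, at 4354, 3520 and 4707 FPKM in the Mild IOP libraries and 5472, 5642 and 5786 FPKM in the Moderate IOP libraries (log2 difference 0.44, SE 0.13, adjusted p = 0.084), and its difference turned negative, at −0.10, under quantile normalization. Under that normalization 5 glycolytic genes were lower and 0 higher.

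The length trend and Mild IOP replicate 2 moved with these counts. After removal of the trend 16 of the 80 respiratory chain and ATP synthase genes were higher and 0 lower, with a median log2 difference of 0.24. Without Mild IOP replicate 2, 49 were higher and the median was 0.65. Ndufa12 and Ndufb3 remained DEGs after removal of the trend (log2 differences 0.56 and 0.67, adjusted p = 0.025 and adjusted p = 0.011), whereas Ndufa6 did not (0.04, adjusted p = 0.92, after 0.95 before). Mitochondrially encoded genes were not analysed here, since the files list no locus on chromosome M.

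Most genes of cytosolic ribosomes, which translate nuclear mRNAs, were higher in Moderate IOP as well. Of 45 genes of the large subunit list, 36 were higher and 0 lower (median log2 difference 0.89), and of 34 genes of the small subunit list, 30 were higher and 0 lower (median 0.95). Large subunit genes summed to 6592, 5062 and 7325 FPKM in Mild IOP and 12250, 11620 and 11210 FPKM in Moderate IOP, without overlap. Reads of ribosomal protein genes may be shared with near-identical processed pseudogenes, so single values are uncertain.

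Rpl32 (chr6:115805514-115808743) was at 151, 134 and 164 FPKM in the Mild IOP libraries and 326, 357 and 362 FPKM in the Moderate IOP libraries (log2 difference 1.22, SE 0.15, adjusted p = 0.004). Rplp2, of the acidic stalk that binds elongation factors, was at 223, 176 and 224 FPKM in the Mild IOP libraries and 410.5, 482 and 457 FPKM in the Moderate IOP libraries (log2 difference 1.12, SE 0.14, adjusted p = 0.004). Among small subunit genes, Rps9 was at 169.6, 167 and 210.3 FPKM in the Mild IOP libraries and 416, 369 and 319.7 FPKM in the Moderate IOP libraries (log2 difference 1.01, SE 0.14, adjusted p = 0.0061) and Rps7 differed by 1.09 (adjusted p = 0.0061). Rps27 had the largest rise of the genes named by size, at 8.36, 0.346 and 13.9 FPKM in the Mild IOP libraries and 33.2, 20.2 and 529.7 FPKM in the Moderate IOP libraries (log2 difference 3.67, SE 1.09, adjusted p = 0.079), but it rested on Moderate IOP replicate 3 and was not a DEG without Control replicate 1 or 2, Mild IOP replicate 1 or 2 or Moderate IOP replicate 3. Its near-identical copy Rps27rt moved the other way without being a DEG (log2 difference −2.31, adjusted p = 0.49), and reads of the 2 genes may have been divided differently between libraries.

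Of all 79 cytosolic ribosomal protein genes, 66 were higher, 45 were higher without Mild IOP replicate 2, and 15 after removal of the length trend (median 0.30). A comparison with other genes of like length and level is given by counts. Among genes below 1000 nt at 100 FPKM or more, 99 of 112 genes of the ribosomal and respiratory lists were higher (88.4%, median log2 difference 0.90), and 156 of 231 other genes were higher (67.5%, median 0.68). At 1000 to 2000 nt and the same level, the counts were 16 of 31 (51.6%) and 110 of 352 (31.2%). The difference between these shares was not tested.

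Mitochondrial ribosomes, which translate the mitochondrial genome, had 29 of 77 protein genes higher and 0 lower (median 0.56), with 9 higher without Mild IOP replicate 2 and 7 after removal of the length trend. Mrps12 was at 68.9, 73.04 and 93.4 FPKM in the Mild IOP libraries and 146, 160.2 and 139 FPKM in the Moderate IOP libraries (log2 difference 0.92, SE 0.14, adjusted p = 0.0077), and Mrpl14 differed by 1.24 (adjusted p = 0.018). Mrpl20 was a DEG (0.73, adjusted p = 0.013), but its difference fell to −0.06 after removal of the length trend. Proteins that import precursors into mitochondria had 10 of 25 genes higher and 0 lower, with 7 and 2 higher in those fits. Timm10 and Timm13, chaperones of the intermembrane space, rose by 0.93 and 0.92 (adjusted p = 0.012 and adjusted p = 0.018).

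Other housekeeping machinery showed fewer DEGs. Of 55 translation factor genes, 6 were higher and 1 was lower. Eif2b2, part of the exchange factor for eIF2, was at 25.9, 19.8 and 23.6 FPKM in the Mild IOP libraries and 38.2, 46.8 and 43.6 FPKM in the Moderate IOP libraries (log2 difference 0.87, SE 0.15, adjusted p = 0.01). Of 53 spliceosomal genes, 11 were higher and 0 lower, among them Snrpd3, a core Sm protein, at 144, 91.1 and 138 FPKM in the Mild IOP libraries and 242, 262 and 234 FPKM in the Moderate IOP libraries (log2 difference 1.00, SE 0.17, adjusted p = 0.01). The Sm-like gene Lsm7 differed by 1.32 (adjusted p = 0.011). Of 38 genes of RNA polymerase II and general transcription factors, 8 were higher and 1 was lower, and those named by rule were Polr2g (0.82, adjusted p = 0.02), Polr2i (0.99, adjusted p = 0.022) and Gtf2h5 (1.01, adjusted p = 0.02). Without Mild IOP replicate 2 the counts of higher genes were 2 for translation factors, 4 for spliceosomal genes and 3 for RNA polymerase II and its factors. Among 55 writers and remodelers of chromatin, which are mostly long genes, 1 was higher and 1 was lower. The lower gene was Hdac5, a histone deacetylase (−0.69, adjusted p = 0.028, not a DEG without Mild IOP replicate 2).

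**Figure D3:**
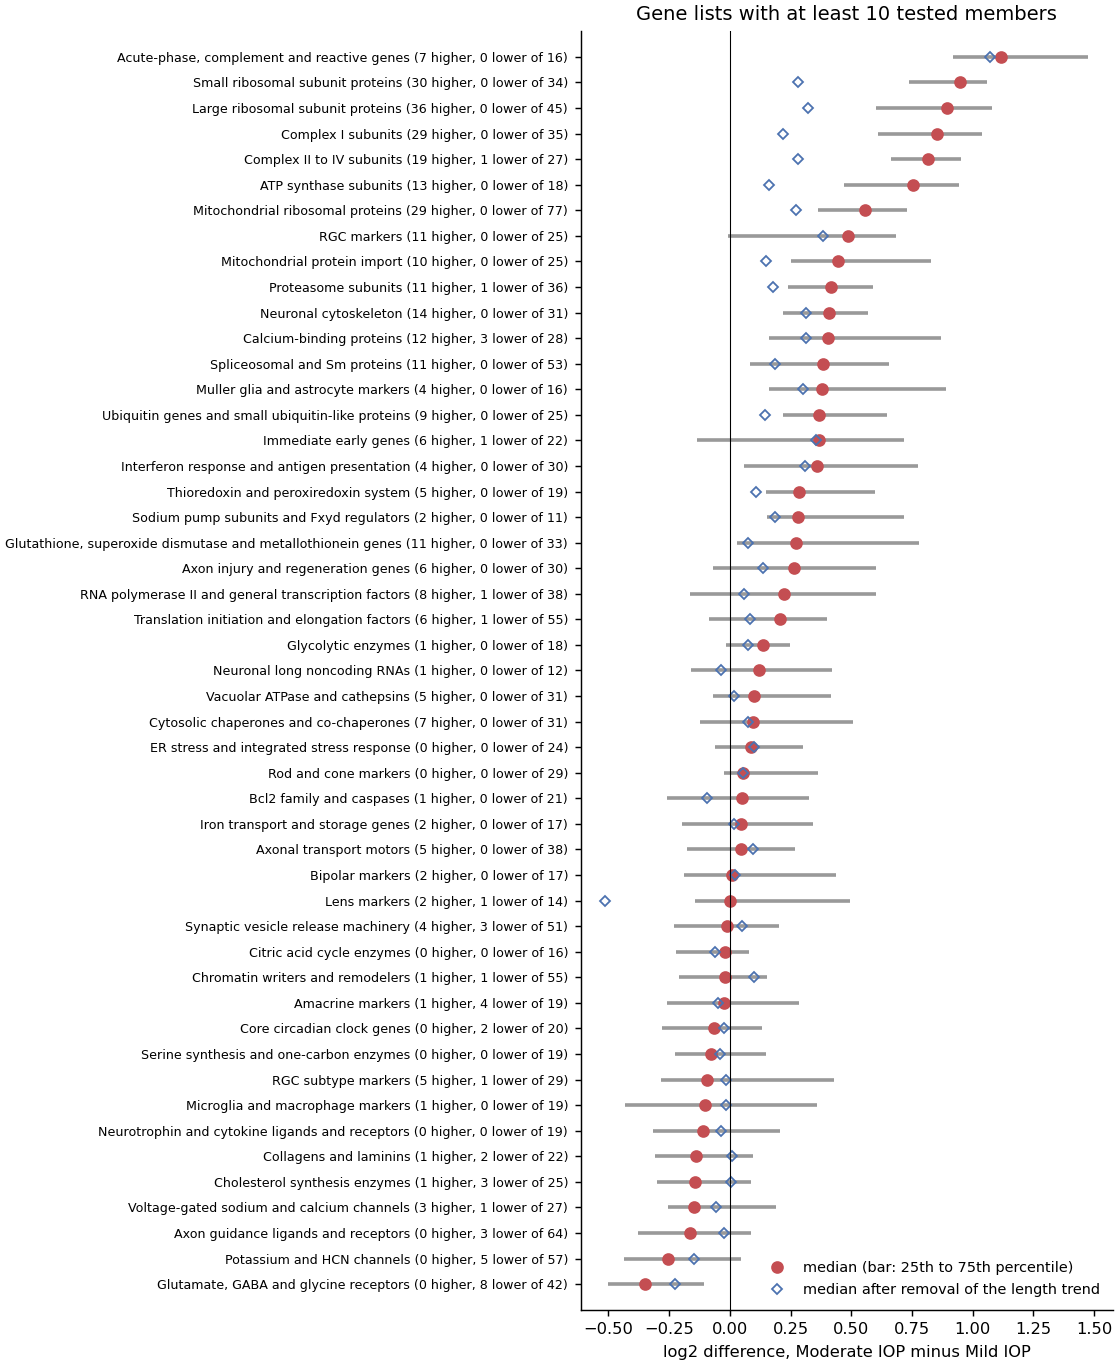
Median log2 difference between Moderate IOP and Mild IOP (red circles, grey bars from the 25th to the 75th percentile) of each gene list with at least 10 tested members, with the number of DEGs in each direction, and the median after removal of the length trend (blue diamonds). The cytosolic ribosomal, respiratory chain and ATP synthase lists move from medians of 0.75 to 0.95 to medians of 0.16 to 0.32, and the receptor list stays below 0.

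Protein turnover and redox genes rose in part. Of 36 proteasome genes, 11 were higher and 1 was lower, and those higher belonged mostly to the core particle. Psmb1 was at 191, 168 and 180.3 FPKM in the Mild IOP libraries and 317, 265 and 280.0 FPKM in the Moderate IOP libraries (log2 difference 0.67, SE 0.11, adjusted p = 0.0098), and Psmb4 and Psmb2 differed by 0.77 and 0.58 (adjusted p = 0.021 and adjusted p = 0.021). Under quantile normalization 0 proteasome genes were higher and 2 were lower. Of 25 ubiquitin genes, 9 were higher and 0 lower. Without Mild IOP replicate 2, 4 proteasome and 5 ubiquitin genes were higher, and after removal of the length trend 3 and 4. Uchl1 (chr5:66676121-66687234), a neuronal ubiquitin hydrolase, was at 326, 289.7 and 360.5 FPKM in the Mild IOP libraries and 559.5, 605 and 601 FPKM in the Moderate IOP libraries (log2 difference 0.86, SE 0.11, adjusted p = 0.004) and was a DEG under each of 25 alternatives.

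The thioredoxin system, which reduces protein disulfides, had 5 of 19 genes higher. Thioredoxin itself, Txn1, was at 82.1, 73.3 and 89.9 FPKM in the Mild IOP libraries and 249, 169 and 194 FPKM in the Moderate IOP libraries with Control at 113, 150.3 and 136 FPKM (log2 difference 1.29, SE 0.16, adjusted p = 0.004), and Prdx6, a peroxiredoxin, differed by 0.77 (adjusted p = 0.023). Of 33 genes for glutathione, superoxide dismutase and metallothionein, 11 were higher and 0 lower. Gpx1, a glutathione peroxidase, was at 83.2, 59.6 and 71.2 FPKM in the Mild IOP libraries and 154, 147 and 139.9 FPKM in the Moderate IOP libraries (log2 difference 1.04, SE 0.14, adjusted p = 0.0058). Sod1, the cytosolic superoxide dismutase, was at 201, 134 and 216 FPKM in the Mild IOP libraries and 435, 337 and 304 FPKM in the Moderate IOP libraries (log2 difference 0.97, SE 0.20, adjusted p = 0.019), and Mgst3 differed by 0.99 (adjusted p = 0.016). Without Mild IOP replicate 2, 2 genes of the first list and 4 of the second were higher. After removal of the length trend 2 of the first list were higher and 1 was lower, and 4 of the second were higher and 1 was lower. Sod1 was not a DEG in that fit (0.32, adjusted p = 0.26). Of 17 iron transport and storage genes 2 were higher, Trf and Fth1. Trf was at 8.11, 7.35 and 5.34 FPKM in the Mild IOP libraries and 23.1, 15.5 and 13.97 FPKM in the Moderate IOP libraries (log2 difference 1.21, SE 0.35, adjusted p = 0.07), and was not a DEG when any 1 Mild IOP library or Moderate IOP replicate 1 or 2 was left out. Fth1, the heavy chain of the iron store ferritin, differed by 0.82 (adjusted p = 0.01).

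Of 31 chaperone genes, 7 were higher and 0 lower, without Mild IOP replicate 2 there were 3 higher, and under quantile normalization 2 were higher and 9 lower. Ppia, cyclophilin A, had the highest level of all DEGs, at 4236, 3241 and 5126 FPKM in the Mild IOP libraries and 7522, 7104 and 6831 FPKM in the Moderate IOP libraries (log2 difference 0.79, SE 0.15, adjusted p = 0.017). Hsp90aa1, an inducible HSP90, was at 295, 265 and 317 FPKM in the Mild IOP libraries and 421, 429 and 434 FPKM in the Moderate IOP libraries (log2 difference 0.55, SE 0.10, adjusted p = 0.016). Cryab, a small heat shock protein that is also abundant in lens, was at 3.88, 3.72 and 5.33 FPKM in the Mild IOP libraries and 17.2, 6.79 and 17.1 FPKM in the Moderate IOP libraries, below the Control libraries at 31.5, 25.6 and 21.7 FPKM (log2 difference 1.38, SE 0.31, adjusted p = 0.029), and was not a DEG without Mild IOP replicate 2. Of 31 vacuolar ATPase and cathepsin genes, 5 were higher, led by Atp6v1d (0.63, adjusted p = 0.021), with 3 higher without Mild IOP replicate 2, but under quantile normalization 0 were higher and 6 lower. Of 24 genes of ER stress and the integrated stress response, 0 were DEGs by limma and 2 had an unadjusted p below 0.05, with 16 of 24 differences above 0, and under quantile normalization 3 were lower.

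Of 31 genes that build the neuronal cytoskeleton, 14 were higher in Moderate IOP, 0 were lower and 17 were not DEGs (median log2 difference 0.41). After removal of the length trend 10 were higher, and without Mild IOP replicate 2 there were 9. Actb (chr5:142903115-142907976), cytoplasmic beta-actin, was at 352, 272 and 374 FPKM in the Mild IOP libraries and 725, 716 and 842 FPKM in the Moderate IOP libraries (log2 difference 1.20, SE 0.14, adjusted p = 0.004), with the groups apart. Tmsb10, which binds actin monomers, was at 157, 128 and 169.6 FPKM in the Mild IOP libraries and 405, 328 and 338 FPKM in the Moderate IOP libraries (log2 difference 1.23, SE 0.13, adjusted p = 0.0032).

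Stathmins bind tubulin dimers, and Stmn2 (chr3:8509527-8561604), a growth-associated member, was at 128, 113 and 146 FPKM in the Mild IOP libraries and 249.8, 212 and 213 FPKM in the Moderate IOP libraries (log2 difference 0.80, SE 0.14, adjusted p = 0.01). Stmn1 was at 1415, 1118 and 1505 FPKM in the Mild IOP libraries and 2095, 2107 and 2204 FPKM in the Moderate IOP libraries (log2 difference 0.68, SE 0.12, adjusted p = 0.012). Stmn1 was not a DEG after removal of the length trend (log2 difference 0.25) or under quantile normalization. The neurofilament light chain Nefl was at 372, 365 and 385 FPKM in the Mild IOP libraries and 523, 530.2 and 558 FPKM in the Moderate IOP libraries (log2 difference 0.52, SE 0.09, adjusted p = 0.012), and its difference was 0.64 after removal of the trend (adjusted p = 0.0057). Control values of Nefl, 353, 338 and 337 FPKM, lay below both groups. Of 38 genes for axonal transport motors, 5 were higher and 0 lower, but under quantile normalization 1 was higher and 4 were lower. The 5 included the dynein light chains Dynll1 (0.79, adjusted p = 0.0081) and Dynlrb1 (0.81, adjusted p = 0.011) and the dynactin subunit Dctn3 (0.65, adjusted p = 0.018). After removal of the length trend Dynlrb1 (0.23, adjusted p = 0.2) and Dctn3 (0.20, adjusted p = 0.4) were not DEGs, whereas Dynll1 was. The same held under quantile normalization.

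Of 25 RGC markers tested, 11 were higher in Moderate IOP, 0 were lower and 14 were not DEGs. Sncg (chr14:34370274-34374669), gamma-synuclein, was at 700.1, 507 and 716 FPKM in the Mild IOP libraries and 1424, 1357 and 1385 FPKM in the Moderate IOP libraries (log2 difference 1.13, SE 0.14, adjusted p = 0.004), and Control lay between, at 854.7 to 947.6 FPKM. Thy1, the antigen of the positive panning step, was at 30.4, 29.2 and 49.6 FPKM in the Mild IOP libraries and 69.02, 67.8 and 87.2 FPKM in the Moderate IOP libraries (log2 difference 1.05, SE 0.21, adjusted p = 0.018), and after removal of the length trend its difference was 0.23 (adjusted p = 0.57). Rbpms, an RNA-binding protein of RGCs, was at 97.7, 66.5 and 65.99 FPKM in the Mild IOP libraries and 283, 193 and 110.3 FPKM in the Moderate IOP libraries (log2 difference 1.26, SE 0.30, adjusted p = 0.036) and was not a DEG without Mild IOP replicate 2 or Moderate IOP replicate 2. Gap43, a growth-cone protein, differed by 0.59 (adjusted p = 0.029), and Tubb3 by 0.57 (adjusted p = 0.055, not a DEG without Mild IOP replicate 2 or Moderate IOP replicate 1 or 3).

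Other RGC markers differed by less than the test could call. Slc17a6, the vesicular glutamate transporter of RGCs, was at 43.5 ± 6.01 FPKM in Moderate IOP against 36.6 ± 1.87 FPKM in Mild IOP (adjusted p = 0.41, n = 3 libraries each, limma), and Chrnb3, a nicotinic receptor subunit, was at 33.7 ± 1.24 FPKM against 37.98 ± 5.67 FPKM (adjusted p = 0.56, limma). Both were chosen after their values were seen. After removal of the length trend 9 of the 25 were higher (median 0.38), and without Mild IOP replicate 2 there were 9.

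Cartpt (chr13:99898483-99910179), a neuropeptide of direction-selective RGCs, had the smallest adjusted p among genes that rose. It was at 337, 234 and 358 FPKM in the Mild IOP libraries and 920.3, 887 and 846 FPKM in the Moderate IOP libraries, with Control at 401, 409.8 and 414 FPKM (log2 difference 1.53, SE 0.15, adjusted p = 0.0016). All 3 Moderate IOP values lay above 2 times every other library, and it was a DEG under each of 25 alternatives. Of 29 RGC subtype markers, 5 were higher and 1 was lower. The list median was −0.095, with 11 differences above 0 and 18 below, so most members did not rise. After removal of the length trend 1 was higher and 1 was lower. Tac1, the substance P precursor, was at 115, 116 and 123 FPKM in the Mild IOP libraries and 184, 206 and 202 FPKM in the Moderate IOP libraries (log2 difference 0.73, SE 0.13, adjusted p = 0.011), Pvalb differed by 1.49 (adjusted p = 0.031, not a DEG without Moderate IOP replicate 2) and Calb2 by 0.43 (adjusted p = 0.044). The difference of Calb2 turned to −0.08 under quantile normalization.

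Of 28 calcium-binding genes, 12 were higher and 3 were lower, and without Mild IOP replicate 2 there were 8 and 0. Calm2, which encodes calmodulin, was at 1714, 1740 and 2094 FPKM in the Mild IOP libraries and 2683, 3037 and 2858 FPKM in the Moderate IOP libraries (log2 difference 0.63, SE 0.14, adjusted p = 0.023). Pcp4, which modulates calmodulin, was at 769, 635 and 879.7 FPKM in the Mild IOP libraries and 1683, 1706 and 1791 FPKM in the Moderate IOP libraries (log2 difference 1.19, SE 0.18, adjusted p = 0.0071). S100a10, a partner of annexin A2, was at 58.1, 60.1 and 81.7 FPKM in the Mild IOP libraries and 242, 184 and 147 FPKM in the Moderate IOP libraries (log2 difference 1.49, SE 0.22, adjusted p = 0.0071). The related S100a16 (chr3:90537254-90543151) was at 2.28, 3.14 and 3.21 FPKM in the Mild IOP libraries and 18.01, 14.9 and 12.3 FPKM in the Moderate IOP libraries, beside 3.93, 3.41 and 3.18 FPKM in Control (log2 difference 2.04, SE 0.22, adjusted p = 0.0029). Of 11 genes for the sodium pump and its FXYD regulators, 2 were higher, Fxyd7 and Fxyd5. Fxyd7 was at 30.8, 27.2 and 54.6 FPKM in the Mild IOP libraries and 109, 129 and 118 FPKM in the Moderate IOP libraries (log2 difference 1.70, SE 0.24, adjusted p = 0.0061). Fxyd5 was listed at 0 in all 3 Mild IOP libraries and was at 4.47, 2.96 and 1.22 FPKM in Moderate IOP and 0, 0.397 and 2.14 FPKM in Control. Fxyd5 passed the filter on low values only through its Moderate IOP values. Its call was lost without Mild IOP replicate 2 or Moderate IOP replicate 1 or 2.

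Several genes of inhibitory transmission were lower in Moderate IOP. Slc6a9 (chr4:117835258-117869305), the glycine transporter GlyT1, was at 149, 148 and 142 FPKM in the Mild IOP libraries and 46.5, 38.9 and 32.6 FPKM in the Moderate IOP libraries, with Control at 118, 112 and 101 FPKM (log2 difference −1.88, SE 0.14, adjusted p = 0.00022). Each Moderate IOP value was under a level of 50 FPKM, and no other library was under 100 FPKM. Gad2 and Gad1 encode the enzymes that make GABA. Gad2 was at 54.9, 60.7 and 59.9 FPKM in the Mild IOP libraries and 29.3, 30.6 and 38.2 FPKM in the Moderate IOP libraries (log2 difference −0.83, SE 0.15, adjusted p = 0.012), and Gad1 was at 568, 618 and 574 FPKM in the Mild IOP libraries and 429, 396 and 437 FPKM in the Moderate IOP libraries (log2 difference −0.48, SE 0.10, adjusted p = 0.02).

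These 3 genes are also markers of amacrine cells, which VC1.1 panning removes. Of 19 amacrine markers, 4 were lower, these 3 among them, and 1, Npy, was higher. The list median was −0.03, with 9 differences above 0 and 10 below. Tkt, another abundant member, was at 448, 419.5 and 437 FPKM in the Mild IOP libraries and 392, 371 and 410.0 FPKM in the Moderate IOP libraries (log2 difference −0.15, SE 0.10, adjusted p = 0.4) and was a DEG only under quantile normalization (log2 difference −0.64). The part of amacrine RNA in the lower genes was not tested.

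Receptors for the 3 fast transmitters showed 0 higher and 8 lower genes of 42 (median log2 difference −0.35). Their median transcript length was 4401 nt, and among all transcripts of 4000 to 6000 nt 5.45% were lower. Gabra2 (chr5:70958392-71095849), a GABA-A receptor subunit, was at 15.4, 18.5 and 14.8 FPKM in the Mild IOP libraries and 5.01, 6.21 and 2.36 FPKM in the Moderate IOP libraries (log2 difference −1.71, SE 0.27, adjusted p = 0.0085). Glra3 (chr8:55940418-56130070), a glycine receptor subunit, was at 18.1, 21.5 and 24.5 FPKM in the Mild IOP libraries and 8.98, 11.5 and 7.06 FPKM in the Moderate IOP libraries (log2 difference −1.15, SE 0.20, adjusted p = 0.011). Gria4, an AMPA receptor subunit, was at 73.5, 83.4 and 65.4 FPKM in the Mild IOP libraries and 45.1, 52.5 and 51.4 FPKM in the Moderate IOP libraries (log2 difference −0.56, SE 0.13, adjusted p = 0.032), and Control, at 56.4, 52.7 and 58.5 FPKM, lay nearer to Moderate IOP. Differences were below 0 in 33 of the 42 genes. After removal of the length trend 4 were lower (median −0.23), and without Mild IOP replicate 2 there were 2, Gabra2 and Glra3 among them.

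Potassium and HCN channels, which set firing and resting potential, showed 0 higher and 5 lower genes of 57 (median −0.26). Their median transcript length was 3101 nt. Among all transcripts of 3000 to 4000 nt 4.68% were lower, beside 3.05% over all genes tested off X and Y. After removal of the length trend 2 of the 57 were lower. Kcnab1, a beta subunit, was at 92.7, 119 and 102 FPKM in the Mild IOP libraries and 46.05, 58.3 and 65.5 FPKM in the Moderate IOP libraries (log2 difference −0.88, SE 0.17, adjusted p = 0.016). Kcnc2 differed by −0.86 (adjusted p = 0.028). Without Mild IOP replicate 2, 1 of the 57 was lower, and Kcnc2 was not. Of 27 genes for voltage-gated sodium and calcium channels, 3 were higher and 1 was lower, against 0 and 1 without scaling, and 0 were DEGs by limma without Mild IOP replicate 2. Of 51 synaptic vesicle genes, 4 were higher and 3 lower, near the shares over all genes, with 1 higher and 0 lower without Mild IOP replicate 2 and 2 higher and 12 lower under quantile normalization. Unc13c and Napb, which act in vesicle priming and fusion, fell by 0.96 and 0.49 on the log2 scale (adjusted p = 0.031 and adjusted p = 0.037), and neither was a DEG without Mild IOP replicate 2.

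Of 64 axon guidance genes, 0 were higher and 3 were lower, or 1 without Mild IOP replicate 2. Over all genes tested off X and Y, 6.98% were higher and 3.05% were lower. The median transcript length of the list was 4485 nt, and among all transcripts of 4000 to 6000 nt 1.3% were higher and 5.45% lower. The count of lower guidance genes was therefore near these shares. Slit2, a secreted repellent, was at 11, 12.7 and 9.67 FPKM in the Mild IOP libraries and 5.92, 4.71 and 4.20 FPKM in the Moderate IOP libraries (log2 difference −1.03, SE 0.20, adjusted p = 0.018), with Control at 8.89, 11.02 and 12.4 FPKM. Sema6b and Dscam differed by −0.63 and −0.66 (adjusted p = 0.048 and adjusted p = 0.076), and both calls were lost when replicate 1 or 2 of Mild IOP or of Moderate IOP was left out.

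**Figure D4:**
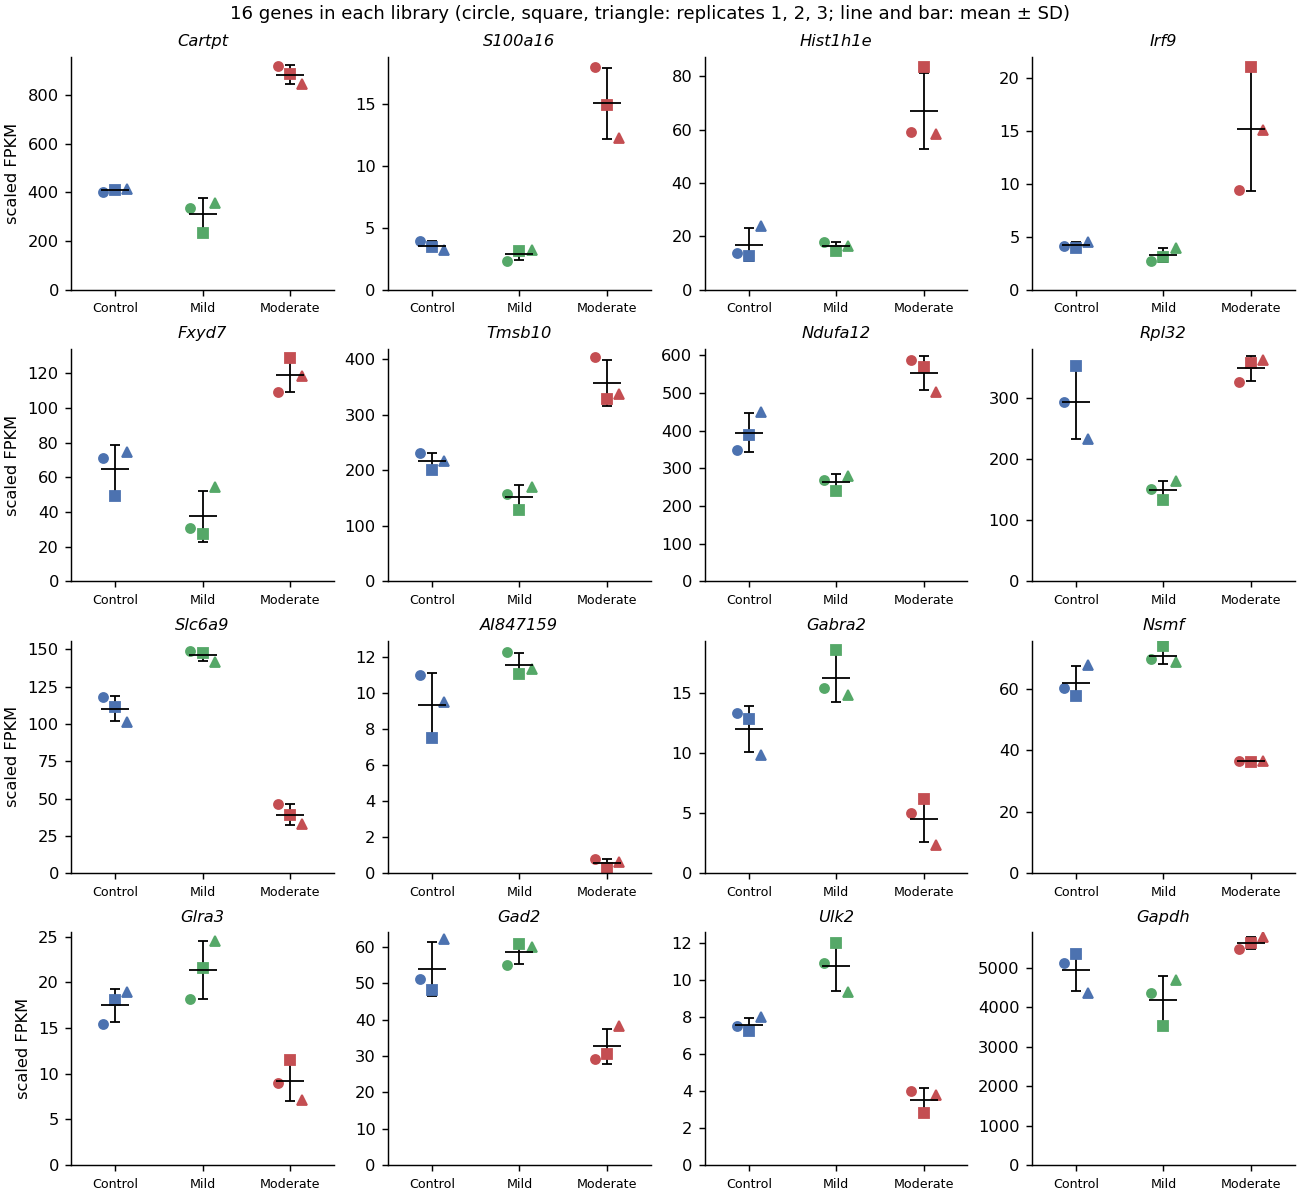
FPKM (vertical axes, from 0) of 16 named genes in each library of Control, Mild IOP and Moderate IOP, with circles, squares and triangles for replicates 1, 2 and 3 and lines and bars for the mean ± SD. Moderate IOP lies above Mild IOP without overlap from Cartpt to Rpl32 and in Gapdh, whose difference reverses under quantile normalization, and below it without overlap from Slc6a9 to Ulk2.

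Some genes of injury and immune response differed. Of 30 axon injury and regeneration genes, 6 were higher and 0 lower, and without Mild IOP replicate 2 there were 3 higher. Sprr1a (chr3:92483954-92485881), which is induced in injured axons, was at 0, 0.253 and 0 FPKM in the Mild IOP libraries and 7.62, 3.87 and 3.83 FPKM in the Moderate IOP libraries, and at 0.239, 0 and 0 FPKM in Control, so that only the Moderate IOP libraries were above 1 FPKM. Sprr1a is among the 6 higher genes and passed the filter on low values only through its Moderate IOP values. Egr1, Fos and Junb are immediate early transcription factors. Of 22 immediate early genes, 6 were higher and 1 was lower, and without Mild IOP replicate 2 there were 3 and 1. Fos was at 74.6, 56.9 and 68.2 FPKM in the Mild IOP libraries and 114, 113 and 130.2 FPKM in the Moderate IOP libraries (log2 difference 0.84, SE 0.14, adjusted p = 0.009), and Junb was at 21.9, 20.4 and 21.5 FPKM in the Mild IOP libraries and 41.8, 37.2 and 57.7 FPKM in the Moderate IOP libraries (log2 difference 1.04, SE 0.18, adjusted p = 0.01). Nab2, which represses EGR factors, was the lower gene, at 19.3, 20.5 and 15.1 FPKM in the Mild IOP libraries and 5.16, 6.77 and 9.10 FPKM in the Moderate IOP libraries with Control at 34.2, 22.7 and 23.5 FPKM (log2 difference −1.29, SE 0.23, adjusted p = 0.012).

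The acute-phase, complement and reactive list had 16 of 30 genes past the filter on low values, and members such as Lcn2 passed it only through their Moderate IOP values. Of the 16, 7 were higher and 0 lower, beside 6.98% higher over all genes tested off X and Y. Members that passed the filter only through Moderate IOP could not come out lower, so these counts are no measure of the list as a whole. Without Mild IOP replicate 2, 4 were higher, and 4 were higher after removal of the length trend. Cebpd (chr16:15887286-15889545), a transcription factor of the acute phase, was at 1.91, 0.521 and 1.49 FPKM in the Mild IOP libraries and 5.79, 9.15 and 9.65 FPKM in the Moderate IOP libraries with Control at 0.251, 0.646 and 0.541 FPKM (log2 difference 2.02, SE 0.31, adjusted p = 0.0077). Lcn2 (chr2:32384637-32387739), lipocalin 2, was at 0, 0.225 and 0 FPKM in the Mild IOP libraries and 2.58, 15.4 and 6.59 FPKM in the Moderate IOP libraries. Serping1, the C1 inhibitor of complement, was at 2.71, 2.76 and 1.60 FPKM in the Mild IOP libraries and 9.97, 7.46 and 8.28 FPKM in the Moderate IOP libraries (log2 difference 1.52, SE 0.25, adjusted p = 0.009). In these 3 genes each Moderate IOP library lay above every other library.

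Of 30 interferon and antigen presentation genes, 4 were higher and 0 lower. Irf9 (chr14:55603985-55610030), which encodes a part of the interferon-activated transcription factor ISGF3, was at 2.72, 3.06 and 3.97 FPKM in the Mild IOP libraries and 9.41, 21.1 and 15.1 FPKM in the Moderate IOP libraries (log2 difference 1.87, SE 0.27, adjusted p = 0.0061). Control values, 4.09, 3.97 and 4.51 FPKM, lay close to Mild IOP. Tapbp, a chaperone of MHC class I, differed by 0.81 (adjusted p = 0.028) and was not a DEG without Mild IOP replicate 2.

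Glial markers were measured beside these genes. Müller glia and astrocyte markers summed to 881.4 to 939.1 FPKM in Mild IOP and 1004 to 1046 FPKM in Moderate IOP, and 4 of 16 were higher, or 1 without Mild IOP replicate 2. The most abundant of them, Dkk3, was at 508, 551 and 468 FPKM in the Mild IOP libraries and 393, 424 and 451 FPKM in the Moderate IOP libraries (log2 difference −0.27, SE 0.10, adjusted p = 0.17) and was not a DEG. Glul, the glial glutamine synthetase, was at 24.1, 20.7 and 25.1 FPKM in the Mild IOP libraries and 56.6, 47.3 and 36.3 FPKM in the Moderate IOP libraries (log2 difference 0.96, SE 0.17, adjusted p = 0.012), and Apoe and Clu differed by 0.63 and 0.51 (adjusted p = 0.029 and adjusted p = 0.036, neither a DEG without Mild IOP replicate 2). Microglial markers summed to 112.1 to 138.4 FPKM in Mild IOP and 145.2 to 265.0 FPKM in Moderate IOP. Fcer1g was at 16.4, 11.2 and 8.22 FPKM in the Mild IOP libraries and 150.0, 95.5 and 10.99 FPKM in the Moderate IOP libraries (log2 difference 2.16, SE 0.71, adjusted p = 0.1, just above the threshold), and was a large part of that sum in Moderate IOP replicates 1 and 2. Of 19 microglial markers 9 differences were above 0 (median −0.10) and 1 was higher, C1qc (0.95, adjusted p = 0.044). Ctss, an abundant microglial lysosomal gene, was not a DEG by limma (adjusted p = 0.35). Erythrocyte transcripts summed to 8.16 to 24.5 FPKM and 7.06 to 13.0 FPKM. Of 17 bipolar cell markers 2 were higher, Pcp2 and Pcp4, of 14 lens markers 2 were higher and 1 was lower, and of 4 horizontal cell, 7 endothelial and pericyte, 4 oligodendrocyte and 5 retinal pigment epithelium markers 0 were DEGs by limma, with 1, a horizontal cell marker, at an unadjusted p below 0.05. The part of glial and other RNA in the injury and immune genes was not tested.

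Some of the largest differences fell outside these functions. Linker histone gene Hist1h1e was at 17.9, 14.7 and 16.3 FPKM in the Mild IOP libraries and 59.3, 83.6 and 58.4 FPKM in the Moderate IOP libraries, with Control at 13.7, 12.8 and 23.99 FPKM (log2 difference 1.96, SE 0.23, adjusted p = 0.004), and Hist1h2ag was at 8.19, 8.42 and 10.7 FPKM in the Mild IOP libraries and 33.01, 41.5 and 42.4 FPKM in the Moderate IOP libraries (log2 difference 1.99, SE 0.24, adjusted p = 0.004). Their reads may be shared with near-identical histone copies, and replication-dependent histone mRNAs mostly lack the poly(A) tail that the library primer binds. Of 52 such genes tested, a family counted after values were seen, 13 were higher and 0 lower, with 37 differences above 0. Cyr61, a matricellular growth factor, was at 2.89, 1.48 and 1.97 FPKM in the Mild IOP libraries and 4.97, 14.9 and 10.3 FPKM in the Moderate IOP libraries (log2 difference 1.74, SE 0.39, adjusted p = 0.028), but not a DEG without Mild IOP replicate 2. Pttg1, securin, was at 47.2, 43.9 and 49.9 FPKM in the Mild IOP libraries and 111, 109 and 93.6 FPKM in the Moderate IOP libraries (log2 difference 1.13, SE 0.12, adjusted p = 0.0029). Calca, the calcitonin gene-related peptide precursor, differed by 2.23 (adjusted p = 0.053), Ubald2 by 2.01 (adjusted p = 0.058) and Ccdc34 by 1.71 (adjusted p = 0.078). These 3 calls were each lost without Mild IOP replicate 2 or Moderate IOP replicate 1.

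Among genes that fell, AI847159 (chr2:129178148-129180673) had the largest difference of those named, at 12.3, 11.02 and 11.3 FPKM in the Mild IOP libraries and 0.765, 0.276 and 0.627 FPKM in the Moderate IOP libraries with Control at 10.99, 7.47 and 9.51 FPKM (log2 difference −3.02, SE 0.22, adjusted p = 0.00022). Ulk2, an autophagy kinase, was at 10.9, 12 and 9.33 FPKM in the Mild IOP libraries and 3.98, 2.78 and 3.81 FPKM in the Moderate IOP libraries (log2 difference −1.38, SE 0.20, adjusted p = 0.0061), and Crebl2 differed by −1.37 (adjusted p = 0.012). Nsmf, a protein that signals from synapse to nucleus, was at 69.7, 73.8 and 68.7 FPKM in the Mild IOP libraries and 36.4, 36.3 and 36.3 FPKM in the Moderate IOP libraries, with nearly equal values within Moderate IOP (log2 difference −0.94, SE 0.12, adjusted p = 0.004). Fads2, a fatty acid desaturase, was at 55.1, 62.7 and 60.8 FPKM in the Mild IOP libraries and 28.8, 23.1 and 30.4 FPKM in the Moderate IOP libraries (log2 difference −1.10, SE 0.15, adjusted p = 0.0058). Alkbh1, a demethylase of nucleic acids, differed by −1.27 (adjusted p = 0.011). Adam17, a protease that sheds membrane proteins, was at 1.81, 2.19 and 2.22 FPKM in the Mild IOP libraries and 0.0885, 0.218 and 0.742 FPKM in the Moderate IOP libraries, and this call and that of Klhl11 (−1.30, adjusted p = 0.023) were lost without Mild IOP replicate 2. Tspyl4 was at 312, 362 and 290.3 FPKM in the Mild IOP libraries and 202, 198 and 196 FPKM in the Moderate IOP libraries (log2 difference −0.69, SE 0.12, adjusted p = 0.01). Zinc finger genes with Zfp symbols, a family counted after values were seen, had 1 higher and 14 lower of 323, with a median log2 difference of −0.22. Over all genes tested off X and Y, 6.98% were higher and 3.05% lower, so the count of lower genes was not far from that share. In all of the single genes of this paragraph except Klhl11 and Adam17 the call held with each library left out in turn.

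Lists with few or no DEGs bound the comparison. Of 21 Bcl2 family and caspase genes, which regulate apoptosis, 1 was higher, and this was Cycs, whose product is first of all an electron carrier. Of 19 genes for neurotrophins, cytokines and their receptors, 0 were DEGs by limma, and of 19 serine synthesis and one-carbon enzymes 0 were, with 4 and 1 at an unadjusted p below 0.05. Among 25 cholesterol genes, 1 was higher, Ebpl, at 6.60, 6.60 and 5.02 FPKM in the Mild IOP libraries and 22.5, 17.8 and 14.99 FPKM in the Moderate IOP libraries (log2 difference 1.45, SE 0.21, adjusted p = 0.0071), and 3 were lower. Of 20 clock genes 2 were lower, with Nr1d2, a nuclear receptor of the clock, at 30.7, 34.1 and 34.5 FPKM in the Mild IOP libraries and 21.3, 16.3 and 18.4 FPKM in the Moderate IOP libraries (log2 difference −0.80, SE 0.14, adjusted p = 0.013). Of 22 genes of the collagen and laminin list, 1 was higher, Sparc, a matrix gene of neither family, and 2 were lower, Col6a1 and Col6a2. Without Mild IOP replicate 2, 0 genes of that list were lower. Of 12 neuronal long noncoding RNAs 1, Snhg1, was higher (1.20, adjusted p = 0.023).

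**Figure D5:**
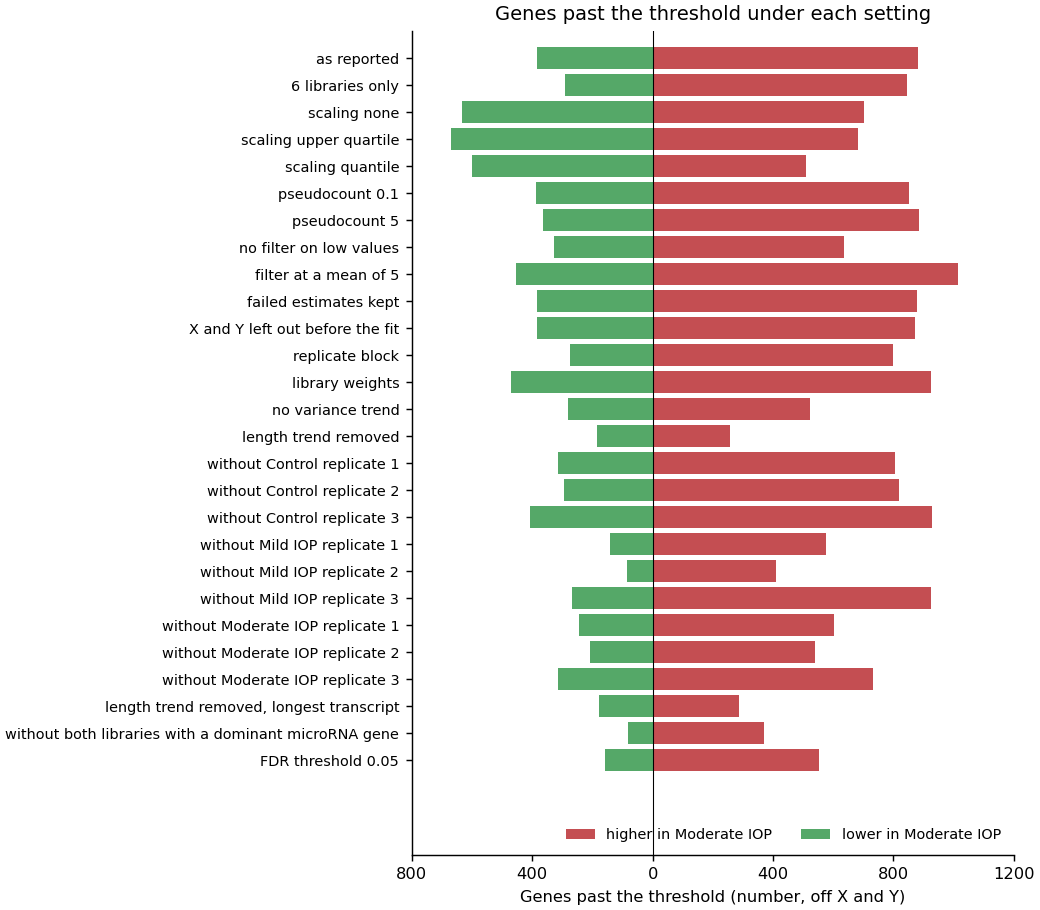
Number of genes off X and Y higher (red, to the right) and lower (green, to the left) in Moderate IOP under the reported settings and each alternative. The reported 880 higher and 384 lower genes fall to 410 and 86 without Mild IOP replicate 2 and to 257 and 184 after removal of the length trend.

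Under each of 25 alternatives at an FDR of 0.1, those that left out a library included, 84 higher and 41 lower genes were DEGs in the same direction. Besides Cartpt, Uchl1, S100a16, Fxyd7 and Irf9, the higher genes included Actb, Sncg, Stmn2, Fos, Junb, Txn1, Ndufb3, Rpl32 and Hist1h1e. Slc6a9, Gabra2, Glra3, Gad2, Nsmf, Ulk2, Fads2, Kcnab1 and Nr1d2 were among the lower genes.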

How the data were processed

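RNA of immunopanned RGCs was pooled by group and amplified with SMART-Seq v4 and oligo-dT primers, and libraries were made with Nextera XT and sequenced on a HiSeq. The submitters' processing notes name FastQC, Trimmomatic, TopHat2, Cufflinks and Cuffdiff with mm10, without versions, whereas the study's methods name bowtie2 as the aligner. The authors deposited cufflinks FPKM per gene for each of the 9 libraries, which are normalised for transcript length and library size, and raw counts were not used here. Depth in fragments was derived from the confidence intervals of FPKM in the files and is approximate.

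FPKM of rows with the same gene symbol were summed, each library was divided by its median-of-ratios size factor, and values were tested as log2(FPKM + 1) with limma 3.58.1 (R 4.3.3). Group means were fitted over all 9 libraries, so that Control shared the estimate of spread, with a variance trend and Benjamini-Hochberg adjustment. Genes with a mean below 0.5 FPKM over the 9 libraries, and 2 symbols with a failed estimate, were left out. The labels name no sequencing batch. Genes were named by rule: in each direction the 12 largest differences and 5 smallest p-values among DEGs with at least 30 derived fragments in every library of the higher group and groups apart, the 5 DEGs of highest level, up to 3 DEGs per gene list, and the 3 most abundant genes of each marker list. Other genes are named as such. The genes and 55 lists were chosen with earlier results of these data known. Replicate numbers did not pair the libraries, with correlations of deviations between same-numbered Mild and Moderate IOP libraries of 0.04, −0.01 and 0.01. The script was first tested on simulated data. The length trend was removed from each library by loess (span 0.5) of its deviations on median transcript length. Columns of other samples were absent. Results of some genes that the rule names are not reported here.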

Additional observations from a re-analysis of the deposited data

How the results depend on the processing

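Counts of genes moved by over 1.5 times with scaling, pseudocount, variance trend, transcript length, threshold and libraries left out. Lower genes numbered 632 without scaling (441 with a fold-change of at least 1.5), 670 with 75th percentile scaling (480 with the fold-change) and 599 with quantile normalization, under which 510 were higher (408 with the fold-change). With a pseudocount of 5, 97 lower genes passed the fold-change. Without a variance trend 804 genes were DEGs, of which 523 were higher. After removal of the length trend 441 were DEGs (257 higher, 184 lower), and 352 passed the fold-change (193 and 159). With the longest transcript in place of the median, an alternative chosen after seeing the data, the numbers were 466 (288 and 178) and 361 (218 and 143). Without both libraries dominated by a microRNA gene, also chosen after seeing the data, they were 451 (369 and 82) and 413 (339 and 74). At an FDR of 0.05 they were 711 (551 and 160), with 644 past the fold-change, 142 of them lower. The cause of these shifts was not tested, except that a stricter threshold calls fewer genes.

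Leaving out 1 library at a time gave 496 to 1337 DEGs (410 to 928 higher, 86 to 409 lower) and 425 to 1058 with the fold-change (350 to 834 and 75 to 292). The lowest counts were those without Mild IOP replicate 2, and 39 of the 147 named DEGs lost their call there. The fit with the replicate block gave 1074 DEGs (798 higher, 276 lower), and since the numbers did not pair the libraries it is given only as an alternative.

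Among 4375 alternative values of named genes, 3947 kept their side of the threshold, 405 fell below it and 16 rose past it. Changes of sign in genes that were DEGs in neither the main nor the alternative fit count among the 3947. The other 7 values changed sign in genes that were DEGs in the main or the alternative fit. Those 7 were Gapdh (−0.101) and Calb2 (−0.084) under quantile normalization, Mif (−0.055) and Mrpl20 (−0.055) after removal of the length trend, and Mif (−0.156), Psmb2 (−0.018) and Atp6v1f (−0.044) with the longest transcript. The cause was not tested. A total of 4860000 to 8740000 derived fragments per library limits what low genes can show, and 3 technical libraries per pool limit every p-value to those pools.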
